A study of Arabidopsis thaliana with 8 samples.

Results

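The ABC transporter genes of Arabidopsis thaliana were examined for binding of ENAP1, a histone-associated nuclear partner of the ethylene regulator EIN2. Members were the nuclear protein-coding genes whose symbol in the gene table is ABC followed by a letter from A to I and a number. There were 124 of 27444 genes, in 8 subfamilies, namely 12 ABCA, 27 ABCB, 15 ABCC, 2 ABCD, 3 ABCE, 5 ABCF, 42 ABCG and 18 ABCI genes. The chromatin immunoprecipitation and sequencing (ChIP-seq) was made with an antibody against green fluorescent protein from whole Col-0 seedlings. All groups carried the ein3 eil1 double mutation, so the transcription factors EIN3 and EIL1 were missing from the controls as well. After 3 days of growth in darkness at 24 °C, the air groups received hydrocarbon-free air for 4 h and the ethylene groups the same air with ethylene at 10 ppm for 4 h. There were 8 samples, 2 ChIP and 2 input for either treatment, and separate seedling batches are not stated in the labels. The construct and the promoter behind the tagged ENAP1 are not given in the sources used here.

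ABC proteins use ATP to move lipids, hormones, conjugated toxins, metal chelates and other molecules across membranes. Full-size members carry the whole pump in 1 protein, and smaller members pair up to form it. Most ABCI proteins are single domains that assemble with partners, many of them in plastids and mitochondria, and ABCE and ABCF proteins have no membrane domain and act with ribosomes. In plants the family is known for auxin transport by ABCB proteins, vacuolar storage by ABCC proteins, and hormone and surface lipid transport by ABCG proteins.

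The deposited data were 1 list of ENAP1 regions per treatment, with 4526 regions in air and 3293 in ethylene, each made jointly from both ChIP samples. No value per replicate was at hand, so no difference between treatments was tested, and absence from a list is no proof that ENAP1 was absent from the gene. A gene is called bound when a summit lies from 1000 bp outside to 500 bp inside either gene end. Fold enrichment is the authors' value for each region and divides the ChIP pile-up at its summit by the local background. Percentiles give the place of that value within its own list, where 100 is the highest. Coordinates are those of the lists, on TAIR10 and counted from 1. Intervals are exact (Clopper-Pearson) 95% intervals that cover counting error only. They treat members as independent, although members share ancestry and neighbouring genes can share a summit. A share outside an interval is therefore a description and no test.

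ENAP1 was listed at 21 ABC genes, and the other 103 had no summit in the window in either list. In the air list 20 of 124 members were bound, or 16.1% (10.1 to 23.8), where 20.96% of all nuclear protein-coding genes were. In the ethylene list 14 members were bound, or 11.3% (6.31 to 18.2), where 15.9% of all genes were. By this rule both background shares lie inside the members' intervals. They lie above the interval in both lists when each summit goes to the nearest gene end, and when only genes of at least 4000 bp are counted, as given below with those values. The bound members were spread over all 5 chromosomes, with 4 of 28 members on chromosome 1, 5 of 19 on chromosome 2, 5 of 39 on chromosome 3, 4 of 18 on chromosome 4 and 3 of 20 on chromosome 5.

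Among the ABCB genes, which include auxin exporters and mitochondrial and plastid carriers, 6 of 27 were bound in air (22.2%, interval 8.62 to 42.3) and 5 in ethylene (18.5%, 6.30 to 38.1). Among the ABCG genes, the largest subfamily, 5 of 42 were bound in each list (11.9%, 3.98 to 25.6). Among the ABCI genes 4 of 18 were bound in air (22.2%) and 2 in ethylene (11.1%). Of the 3 ABCE genes, 2 were bound in both lists. The ABCA and ABCC genes were bound in air only, with 2 of 12 (16.7%) and 1 of 15 (6.67%). The 2 ABCD and the 5 ABCF genes were bound in neither list, and with so few genes the intervals reached 84.2% and 52.2%.

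**Figure D1:**
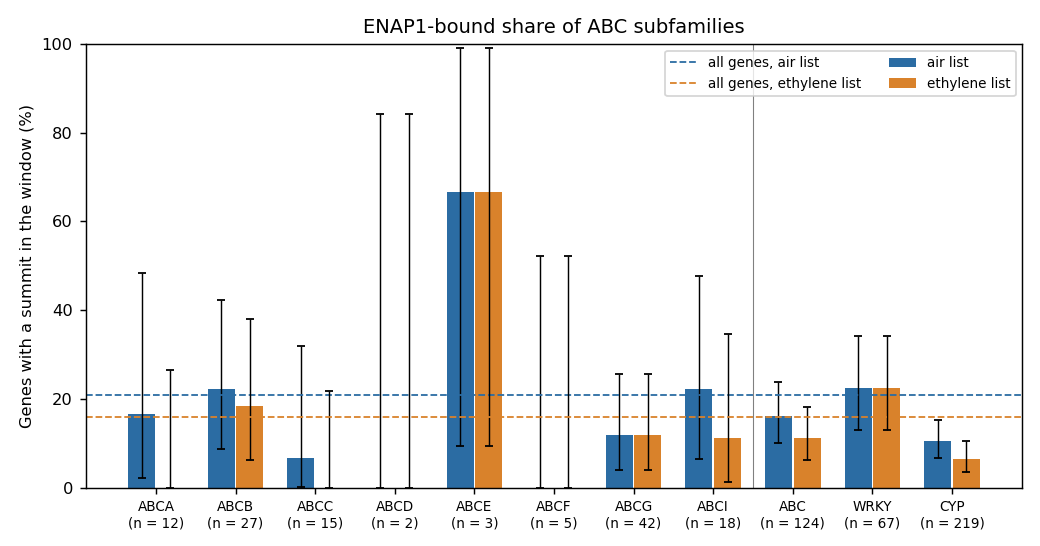
Bars give the percentage of genes with a summit in the window, per ABC subfamily and for ABC, WRKY and cytochrome P450 (CYP) genes as a whole, in the air and ethylene lists. Error bars are exact 95% intervals for counting error, and dashed lines mark all nuclear protein-coding genes (20.96% in air, 15.9% in ethylene). Only ABCE stands far above the lines, on 2 of 3 genes with an interval that reaches down to 9.43%.

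For a comparison with other large families, the same window was applied to transcription factor and enzyme genes. Of 67 WRKY genes 15 were bound in air and 15 in ethylene, 22.4% in each. Of 219 cytochrome P450 genes 23 were bound in air (10.5%) and 14 in ethylene (6.39%). The ABC shares of 16.1% and 11.3% lie between those families in both lists, and their intervals overlap those of both.

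ABC genes are long, and among genes of at least 4000 bp the bound share of members was lower than that of all genes. Their median length was 4609 bp (interquartile range 2736 to 5815), against 2078 bp for all genes. Of all genes of at least 4000 bp, 28.2% were bound in air and 20.7% in ethylene. Of the 77 ABC genes in that class 11 were bound in air (14.3%, 7.35 to 24.1) and 7 in ethylene (9.09%, 3.73 to 17.8), so the share of all genes of that length lies above the interval in each list. Of the 39 members from 2000 bp up to 4000 bp, 8 were bound in air (20.5%) and 6 in ethylene (15.4%), beside 25.0% and 19.2% of all genes of that length. The window itself was nearly the same for both, with a mean of 2994 bp per ABC gene and 2943 bp per gene overall. The length classes were chosen after seeing the data and the differences were not tested.

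**Figure D2:**
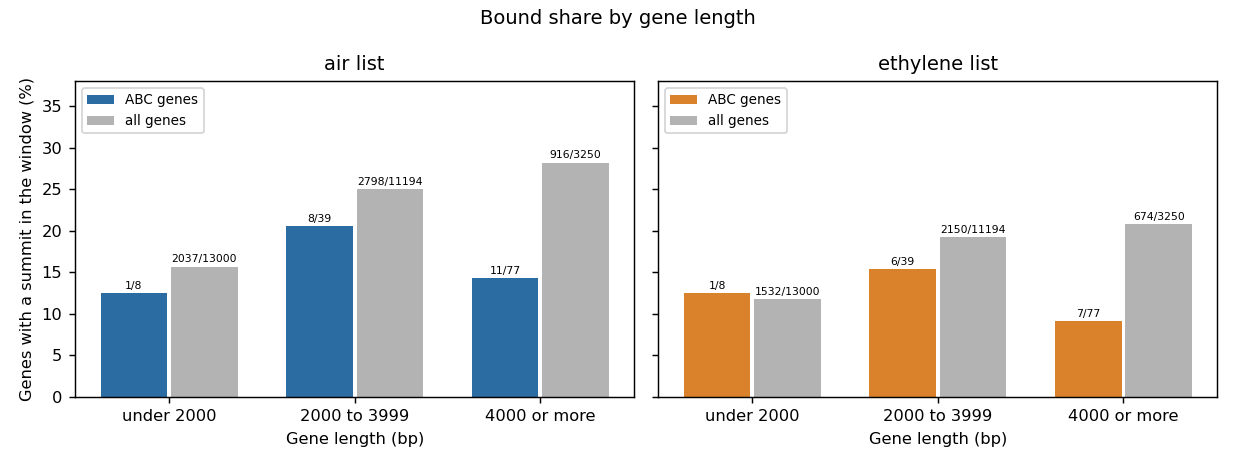
Bars give the percentage of genes with a summit in the window by gene length in bp, for ABC genes (coloured) and all nuclear protein-coding genes (grey), in the air list on the left and the ethylene list on the right. The numbers above the bars are bound genes over genes in the class. Over all genes the share is higher in longer classes, while among ABC genes of 4000 bp or more it is 14.3% in air and 9.09% in ethylene.

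Of the 21 bound members, 13 were bound in both lists, 7 in air only and 1 in ethylene only. These are 10.5%, 5.65% and 0.806% of the family, beside 13.3%, 7.68% and 2.59% of all genes. The 13 make up 65.0% of the members bound in air and 92.9% of those bound in ethylene, where the shares over all genes were 63.4% and 83.7%. At each of the 13 the highest regions of both lists overlapped, and their summits lay 3 to 70 bp apart (median 14 bp). Over all 3644 genes bound in both lists the median distance was 17 bp.

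In the ABCB subfamily, ABCB29 (AT5G03910) had the highest fold enrichment of any ABC gene in the air list. The air region (chr5:1056918-1057234) had an enrichment of 10.1 and rank 286, and the ethylene region (chr5:1056938-1057233) had 2.87 and rank 1596. Behind these stood a pile-up of 120 over a local background of 11.0 in air and of 158 over 54.5 in ethylene, each on the scale of its own list. Both summits lay inside the gene, 113 and 118 bp from an end, and no other gene had them in its window. By enrichment the region thus stood in the top 10% of the air list and near the middle of the ethylene list. By −log10 p its percentiles were 97.9 in air and 84.2 in ethylene.

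ABCB24 and ABCB25 belong to the mitochondrial ATM branch, in which ABCB25 (ATM3) is known for the export that cytosolic iron-sulfur proteins depend on. ABCB24 (AT4G28620) had enrichments of 8.25 in air (chr4:14135166-14135411) and 2.48 in ethylene (chr4:14135125-14135387), at percentiles 88.3 and 29.4. Ranked by −log10 p, ABCB24 stood at percentiles 93.2 and 64.7. Its summits lay 239 and 251 bp outside the gene and 5 and 17 bp inside the neighbouring gene PHR1, which encodes a regulator of the phosphate starvation response. ABCB25 (AT5G58270) had 5.68 in air (chr5:23562005-23562218) and 2.44 in ethylene (chr5:23562021-23562235), with summits 232 and 235 bp inside the gene. The end of the neighbouring gene NdhN was nearer, with the summits 121 and 124 bp outside it. ABCB23, the third ATM gene and the direct neighbour of ABCB24, had its nearest summit 3034 bp away in air and 3046 bp in ethylene.

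Of 8 members listed for auxin transport, ABCB4 and ABCB21 were bound, and ABCB1, ABCB11, ABCB14, ABCB15, ABCB19 and ABCG37 were not. That is 2 of 8 in air and 1 of 8 in ethylene, beside 20.96% and 15.9% of all genes. ABCB4 (AT2G47000), which moves auxin in root tips, was the only member with a pair of regions in its window in 1 list. In air the higher one (chr2:19309506-19309762) had an enrichment of 4.86 with the summit 8 bp outside an end, and the lower one (chr2:19310062-19310185) had 3.24 at 491 bp inside. In ethylene there was a single region (chr2:19309556-19309778), with an enrichment of 3.51, 45 bp inside. Its percentile was 43.9 in air and 76.4 in ethylene. The summit of the higher air region lay 38 bp inside the end of a neighbouring gene, AT2G46995. In ethylene the summit lay 15 bp outside AT2G46995, nearer to that gene's end than to the end of ABCB4. ABCB21 (AT3G62150) carried the lowest air enrichment of the bound members, 3.07 (chr3:23014473-23014715), 584 bp outside its end and 487 bp inside the neighbour AT3G62160. By −log10 p that region stood at percentile 54.0 of the air list. Regions of higher enrichment stood just past the window of ABCB21. On the same side an air region had 3.86 at 1079 bp (chr3:23015026-23015252), and beyond the other end both lists had one, with 7.09 in air at 1467 bp (chr3:23007069-23007283) and 3.45 in ethylene at 1448 bp (chr3:23007065-23007322). The call of ABCB21 as bound in air alone therefore rests on the window. The local background at the region inside the window was 7.53 times the floor of the air list (the first percentile of its background values), the highest at any member. ABCB1 and ABCB19, the main auxin exporters of the subfamily, had no summit within 7458 and 33501 bp in air, and none within 8926 and 71913 bp in ethylene.

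ABCB26 (AT1G70610), the TAP1 gene of the subfamily, was bound in both lists at low percentiles of fold enrichment. The enrichment was 4.41 in air (chr1:26621688-26621945, percentile 31.2) and 2.11 in ethylene (chr1:26621751-26621931, percentile 11.2). Ranked by −log10 p, ABCB26 stood at percentiles 65.4 in air and 37.5 in ethylene. Both summits fell in the gap before AT1G70600, 62 and 46 bp outside ABCB26 and 58 and 74 bp outside the neighbour, so the nearest gene differs between lists.

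In the ABCG subfamily the strongest regions lay far outside the gene bodies. ABCG42 (AT4G15233), a full-size gene of the pleiotropic drug resistance type, had an enrichment of 7.98 in air (chr4:8695268-8695648) and 5.71 in ethylene (chr4:8694968-8695574). The ethylene region was 607 bp wide, the widest at any member, and held rank 87 of its list, the highest of the family there. Its summit lay 629 bp outside ABCG42, and that of the air region 663 bp outside. ABCG14 (AT1G31770), which loads root cytokinin into the xylem, had 7.27 in air (chr1:11373767-11373955, rank 785) and 5.45 in ethylene (chr1:11373721-11374001, rank 109). Those summits lay 890 and 895 bp outside ABCG14, near the edge of the window, and 431 and 436 bp inside the neighbour AT1G31760.

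Both of these places had a local background near the floor. Relative to the floor it was 1.34 in air and 1.17 in ethylene at ABCG42, and 1.25 and 1.24 at ABCG14. At ABCB29 it was 2.79 and 3.80 times the floor, and over all regions the median was 2.06 in air and 1.93 in ethylene. The part of the background in these ranks was not tested. Ranked by −log10 p, ABCG42 and ABCG14 were again the highest of the family in ethylene, at ranks 188 and 211, and ABCB29 the highest in air, at rank 95.

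The summits at ABCG42 and ABCG14 also lay inside annotated noncoding RNA genes, AT4G02945 and AT1G09105. The same held for ABCG3 (AT2G28070), the only member bound in ethylene alone, whose region (chr2:11954971-11955126) had an enrichment of 2.67 with the summit 849 bp outside the gene and inside AT2G08220. That makes 2 of 21 air regions and 3 of 14 ethylene regions at members, where 4.62% and 4.91% of regions at any gene had their summit in a gene that is not protein-coding. At ABCG3 the −log10 p of 8.43 was among the lowest of the ethylene list, and the nearest air summit was 6611 bp from that of the region, beyond the other end of the gene.

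At the remaining bound ABCG genes, summits lay close to the gene or inside a neighbour. ABCG20 (AT3G53510), of the suberin barrier, had 5.11 in air (chr3:19836968-19837185) and 2.65 in ethylene (chr3:19836939-19837152), with summits 55 and 69 bp outside it and 5 bp outside and 9 bp inside RS2Z32, a splicing factor gene. ABCG31 (AT2G29940), linked to abscisic acid delivery in seeds and to the pollen coat, had 5.51 in air (chr2:12767546-12767713) and 2.32 in ethylene (chr2:12767589-12767740). Its summits lay 853 and 881 bp outside and within the neighbours ELF4-L1 and CYP5, the second of which encodes a cyclophilin. ABCG34 (AT2G36380), known for secretion of the defence compound camalexin, had an air region of 6.55 (chr2:15257430-15257605, rank 1079) with the summit 88 bp inside the gene, and no ethylene summit within 28266 bp of an end.

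No other ABCG gene of the hormone and surface lists was bound, and these lists are short. Of 7 genes linked to abscisic acid transport, ABCG31 alone was bound, and ABCG17, ABCG18, ABCG22, ABCG25, ABCG30 and ABCG40 were not. ABCG25 exports abscisic acid and ABCG40 imports it, and their nearest summits lay 12029 and 3641 bp away in air and 12046 and 3632 bp in ethylene. Of 8 surface lipid genes, ABCG20 alone was bound. ABCG11 and ABCG12, which export cuticular wax, had their nearest air summit at 2275 and 18026 bp. None of 4 pollen wall genes was bound. Over all genes the bound shares were 20.96% in air and 15.9% in ethylene. The enrichment of 3.35 at ABCG1 (chr2:16430677-16430832, air) lay 668 bp inside the gene, beyond the window, and was the only summit more than 500 bp inside an ABC gene in either list. Per Mb of gene body more than 500 bp from both ends, ABC genes had 2.23 summits in air and 0 in ethylene. Beside these stood 8.999 and 5.36 per Mb over all genes, from 356 and 212 summits. The difference was not tested.

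In the ABCI subfamily ABCI11 (AT5G14100), known as NAP14 of the plastid, was the highest. Its region had an enrichment of 9.08 in air (chr5:4551649-4551957, rank 405) and 3.74 in ethylene (chr5:4551698-4551930, rank 621). Its summits lay 45 and 48 bp inside the gene and 66 and 69 bp outside the neighbour AT5G14105. Its percentiles were 91.1 and 81.2. ABCI7 (AT1G32500) encodes the SUFD scaffold subunit of plastid iron-sulfur cluster assembly. It had 7.39 in air (chr1:11749610-11749865) and 2.91 in ethylene (chr1:11749594-11749852). The summits lay 67 and 72 bp outside it and 57 and 62 bp inside ESP3, an RNA helicase gene. ABCI8, which encodes the SUFB subunit, was not bound, with its nearest summits at 2419 bp in air and 9381 bp in ethylene.

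The third SUF subunit gene carries its ABC name only as a synonym and is therefore outside the count. NAP7 (ABCI6, AT3G10670), which encodes the SUFC ATPase, was bound in both lists. It had 5.52 in air (chr3:3337227-3337457) and 1.90 in ethylene (chr3:3337224-3337436), with summits 119 and 153 bp inside the gene and a local background 4.25 and 5.39 times the floor. PGP10 (ABCB10) and PEN3 (ABCG36), which are named in the same way, were not bound.

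ABCI15 and ABCI19 were bound in air only. ABCI15 (AT3G20320) is TGD2, a subunit of the complex that brings lipids into plastids. It had an enrichment of 6.48 (chr3:7087333-7087504) with the summit 49 bp outside the gene. That summit is also counted for ERF7, a repressor of the ERF family, at 502 bp outside. The other subunit genes ABCI13 (TGD3) and ABCI14 (TGD1) had no air summit within 49860 and 22237 bp. ABCI19 (AT1G03905), a soluble protein linked to cytokinin response, had 5.01 (chr1:995911-996225). Its summit lay 124 bp outside and 37 bp inside the neighbour AT1G03910. ABCI20 and ABCI21 of the same group were not bound. Over the 9 members of the list for organelle cofactors and lipids, 4 were bound in air and 3 in ethylene. Over the 4 cytokinin genes, 2 were bound in air and 1 in ethylene. Both lists are short, and over all genes the shares were 20.96% in air and 15.9% in ethylene.

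Among the soluble ABCE and ABCF genes, ABCE2 (AT4G19210), the RLI2 gene of ribosome recycling, had 5.43 in air (chr4:10501014-10501217) and 2.44 in ethylene (chr4:10501013-10501239). Its summits lay 21 and 5 bp outside an end, closest to ABCE2 of all genes. ABCE3 (AT4G30300), the shortest of the bound members at 546 bp, had 3.79 and 1.89 (chr4:14831736-14831924 and chr4:14831758-14831933). Those summits lay 264 and 334 bp outside it and 76 and 146 bp inside AT4G30310, and the ethylene one had the lowest enrichment of any region at a member. ABCE1 and ABCF1 to ABCF5 were not bound, and their nearest air summits lay from 5014 to 23390 bp away. Over the 7 genes listed for translation, ABCE2 was thus the 1 bound in both lists, where 13.3% of all genes were.

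The ABCA and ABCC subfamilies had 3 bound genes, all in air and all below the median enrichment of the list. ABCA1 (AT2G41700), the longest bound member at 13412 bp, had 4.895 (chr2:17396602-17396868), 387 bp outside. ABCA7 (AT3G47780) had 4.90 (chr3:17624290-17624439), 37 bp inside. ABCC3 (AT3G13080), a vacuolar carrier of glutathione conjugates, had 4.71 (chr3:4195371-4195599), 280 bp outside and 10 bp inside AT3G13075. The main vacuolar carriers of phytochelatins, ABCC1 and ABCC2, and the inositol hexakisphosphate carrier ABCC5 were not bound. Over the 5 genes of vacuolar detoxification, 1 was bound in air and 0 in ethylene, and of the 2 aluminium tolerance genes, ABCB27 (ALS1) and ABCI17 (STAR1), none was bound. Over all genes the bound shares were 20.96% in air and 15.9% in ethylene. Of the 7 members bound in air only, ABCG34 and ABCI15 lay above the median enrichment of the air list and the other 5 below it, at percentiles from 2.82 to 76.2 in all. By −log10 p, 3 of the 7 lay below the median.

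Taken within each list, the regions at members were ordinary in enrichment. The 21 air regions had a median enrichment of 5.43 (3.07 to 10.1), beside 5.06 over all air regions, and a median percentile of 58.6. The 14 ethylene regions had a median of 2.66 (1.89 to 5.71), beside 2.84, and a median percentile of 39.2, which was 63.8 when ranked by −log10 p. In each list 2 regions at members stood in the top 10% by enrichment, ABCB29 and ABCI11 in air and ABCG42 and ABCG14 in ethylene. Of the 13 members in both lists, ABCB4, ABCG14 and ABCG42 had the higher percentile in ethylene and the other 10 in air. Over all genes in both lists 65.5% had the higher percentile in air. The lists differ in length and background, so this order is a place within each list and no measure of a change.

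**Figure D3:**
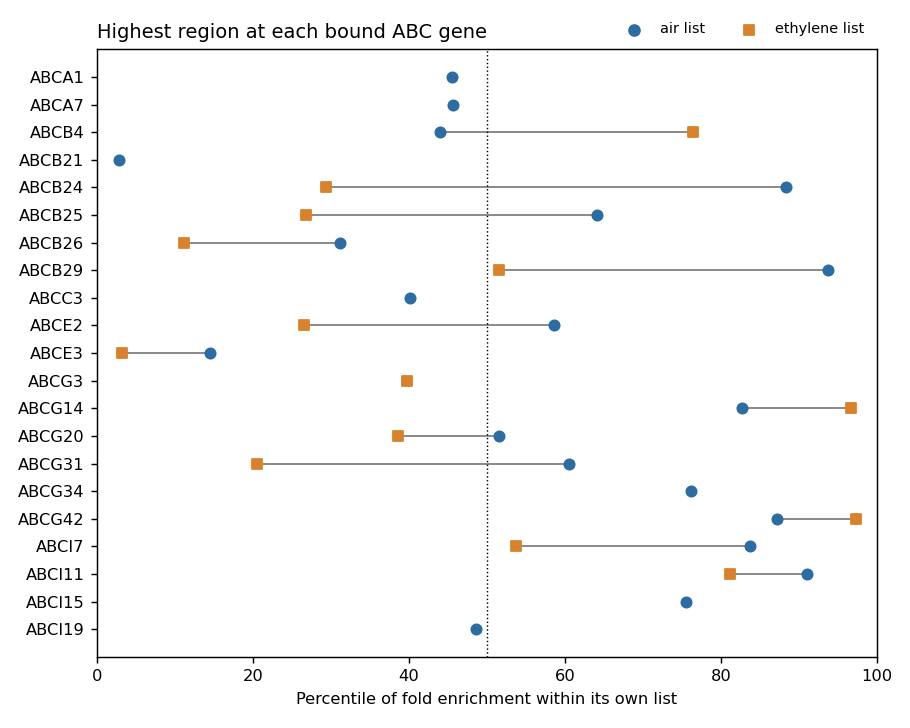
Each row is 1 of the 21 bound ABC genes, and the points give the percentile of the fold enrichment of its highest region within the air list (circles) and the ethylene list (squares). Grey lines join the 13 genes found in both lists, and the dotted line marks the median of a list. ABCG42 and ABCG14 are furthest to the right in ethylene, and ABCB29 and ABCI11 in air.

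Fewer summits lay inside the gene at bound ABC genes than over all bound genes. Taking the highest region of each bound gene, 5 of 20 summits in air (25.0%) and 4 of 14 in ethylene (28.6%) were inside the ABC gene, beside 50.5% and 52.2% over all bound genes. Of the summits, 9 of 20 in air and 6 of 14 in ethylene lay within 100 bp of an end, beside 33.2% and 28.5%. Most also fell in the window of another protein-coding gene, with 16 of 20 in air (80.0%) and 11 of 14 in ethylene (78.6%), beside 69.3% and 68.1%. Which end is the transcription start was not determined, and none of these differences was tested.

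**Figure D4:**
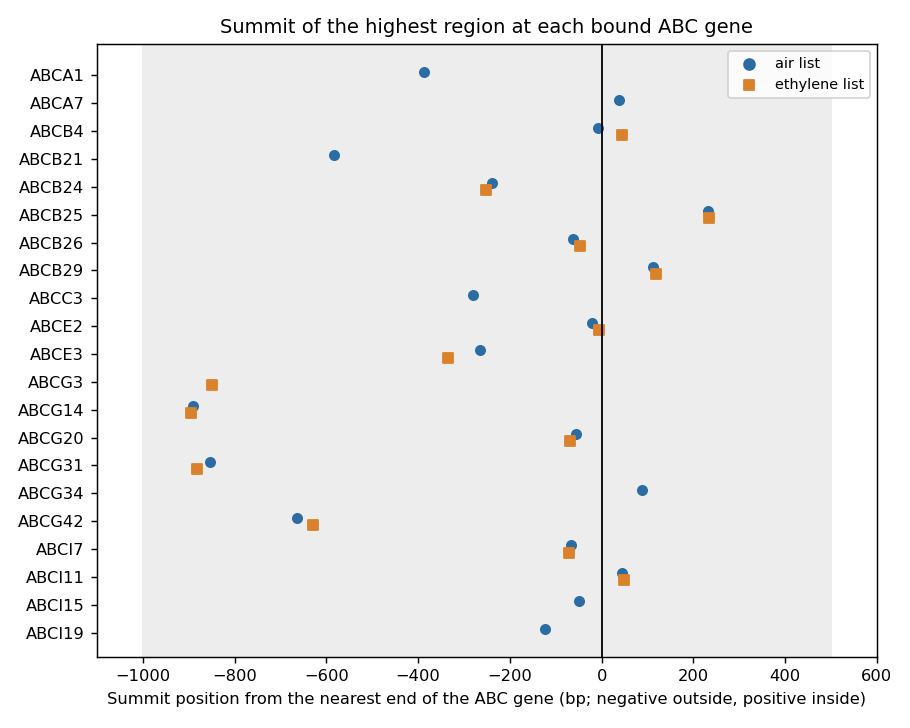
Each row is 1 of the 21 bound ABC genes, and the points give the position in bp of the summit of its highest region from the nearest gene end, negative outside and positive inside the gene, in air (circles) and ethylene (squares). The shaded band is the window from 1000 bp outside to 500 bp inside. ABCG14, ABCG31 and ABCG3 lie nearest the outer edge of the window, and points of both lists nearly coincide at most genes.

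When each summit was given to the gene with the nearest end, fewer members remained. In air 9 of the 20 kept their call, namely ABCA1, ABCA7, ABCB4, ABCB29, ABCE2, ABCG34, ABCG42, ABCI11 and ABCI15, or 7.26% of the family (3.37 to 13.3) beside 14.02% of all genes. In ethylene 6 of the 14 kept it, namely ABCB26, ABCB29, ABCE2, ABCG3, ABCG42 and ABCI11, or 4.84% (1.80 to 10.2) beside 10.5%. Both shares of all genes thus lie just above the interval. That is 45.0% and 42.9% of bound members, where 64.0% and 64.3% of all bound genes kept their highest region. Every bound member had another protein-coding gene less than 1000 bp away, as did 80 of the 103 members in neither list (77.7%). Over all genes the share was 88.9% of bound genes and 80.4% in total.

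Several ABC genes stand beside each other. There were 13 runs of neighbouring members with 36 genes, of which 5 were bound in air (13.9%, beside 20.96% of all genes) and 2 in ethylene (5.56%, beside 15.9%). No run held more than 1 bound member, and most runs have only 2 or 3 genes. The run of 7 ABCA genes on chromosome 3 held 1 bound gene, ABCA7. A run of 4 ABCG genes on chromosome 4, with ABCG30 and ABCG43, held ABCG42. The region at ABCG42 lay 1281 bp outside ABCG43 in air and 1315 bp in ethylene, and so beyond the window of that gene. The runs with ABCB11, with ABCC1 and with ABCG17 and ABCG18 held none. Of the 88 members with no member beside them, 15 were bound in air and 12 in ethylene.

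The call of several members depended on the width of the window. From 500 bp outside to 200 bp inside an end, 15 members were bound in air (12.1%, beside 15.8% of all genes) and 9 in ethylene (7.26%, beside 11.6%), in place of 20 and 14. The air list lost ABCB21, ABCB25, ABCG14, ABCG31 and ABCG42, and the ethylene list lost ABCB25, ABCG3, ABCG14, ABCG31 and ABCG42. Nearest the outer edge of the wider window were ABCG14 (890 bp outside in air), ABCG31 (881 bp in ethylene) and ABCG3 (849 bp in ethylene). Just outside it were ABCG43 and ABCG24, both named after their values were seen. The nearest summit to ABCG24 lay 1294 bp outside in air, with an enrichment of 6.08 (chr1:19916458-19916753), and 1338 bp outside in ethylene, with 2.53 (chr1:19916392-19916928). Of the 103 members in neither list, 8 had an air summit and 5 an ethylene summit within 2000 bp of an end, and 52 and 60 had none within 10000 bp.

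Genes that work with ABC transporters were looked at in the same window. Of 30 such genes 3 were bound in air (10%, beside 20.96% of all genes) and 1 in ethylene (3.33%, beside 15.9%), and none in both lists (beside 13.3%). The kinase gene PID, which acts on auxin exporters, had 5.10 in air (chr2:14589911-14590242), 266 bp inside. LAX2, of an auxin import carrier, had 2.93 in air at 992 bp outside, at percentile 1.82 of the list. That summit lay 154 bp from an end of another gene, GRP2B. LACS6 and LACS7 encode the acyl-CoA synthetases of the peroxisome. LACS6 had 3.57 in air and LACS7 3.28 in ethylene, 179 and 214 bp inside. None of the 8 PIN auxin export carriers, 6 cuticular lipid genes, 4 genes of phytochelatin and glutathione synthesis, 2 of plastid lipid import and 2 of plastid iron-sulfur assembly was bound.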

How the data were processed

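The submitters' processing notes name BWA, MACS2 (version 2.1.0.20150603) and the TAIR10 build. For either treatment, the labels give 1 deposited peak list for its ChIP samples. Reads per library were not used here, so depth is unknown. The deposited columns used are start, end, summit offset, fold enrichment (a ratio), −log10 p and −log10 q, all from the authors' peak caller. In 100% of rows the deposited score was the whole-number part of 10 × −log10 p. Pile-up and local background were solved from the fold enrichment, whose terms each have 1 added, and −log10 p, by a step tested on simulated data.

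Gene names and ends came from the RefSeq gene table (TAIR10.1), which has no strand or sequence, so gene starts and promoter motifs were not analysed here. Symbols of NPF and DTX transporters matched 0 and 2 genes, and those families were left out. All bound members may be named, and unbound ones through 10 role lists with 55 members, of which 1 is not reported here. ABCG24 and ABCG43, outside those lists, were named after their values were seen, as were the genes matched by synonym. After the files were seen, ABCI16 was taken out of a role list and partner genes were matched by locus. Members and lists were chosen with earlier results of these data known, and no list was tested. Shares carry exact 95% intervals. Python 3.11.15, numpy 2.4.6, pandas 2.3.3 and scipy 1.17.1 were used.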

Additional observations from a re-analysis of the deposited data

How the results depend on the processing

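No paired analysis was possible because the files hold joint lists without replicate values, which also kept single replicates from being left out. With each summit given to the nearest gene end, the bound share was 7.26% in air and 4.84% in ethylene, with 4 members in both lists and 2 in ethylene only. In that setting, and among genes of at least 4000 bp, the share of all genes lay above the members' interval in both lists, and in the other settings inside it. With regions at or above the median fold enrichment of their list, the shares were 9.68% and 4.84%, beside 11.02% and 7.96% of all genes, with 5 members in both lists. With regions of −log10 q of at least 20 they were 8.06% and 4.84%, beside 8.96% and 4.65%, again with 5 in both. In the window from 500 bp outside to 200 bp inside an end, 0 members were in ethylene only. Among members of at least 4000 bp, 6 were in both lists. Ranked by −log10 p, the median percentile of the ethylene regions was 63.8 and not 39.2. These settings leave fewer regions, assignments, genes or bases by construction, except the last, whose cause was not tested. The other 36 values stayed within the interval of the share, within 1.5 times the count, or on the same side of the median percentile. These are counts, and the genes behind them can change. At or above the median fold enrichment, ABCG34 and ABCI15 stayed in air only, now with ABCB24, ABCB25, ABCE2, ABCG20 and ABCG31. In that setting, and with −log10 q of at least 20, the member in ethylene only was ABCB4 and not ABCG3. The alternatives by gene length, by −log10 p rank and restricted to background under 5 times the floor were chosen after seeing the data. The alternative by gene starts was not run, since the table gives no strand.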
